A study of Caenorhabditis elegans with 2 samples.

Results

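The microRNA (miRNA) genes of Caenorhabditis elegans were examined in a chromatin immunoprecipitation sequencing (ChIP-seq) experiment on the protein F44E2.7 fused to a green fluorescent protein. All genes that the Ensembl annotation of assembly WBcel235 (the same assembly as ce11) classes as miRNA were taken, which gave 261 of 46890 nuclear genes. For each gene the peak of highest signal was read whose summit lay between 1000 bp upstream of the gene and 200 bp past its end.

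Both samples were biological replicates of 1 group, so no condition was compared with another. The animals were of strain OP381, which carries the integrated transgene wgIs381, in which F44E2.7 is joined to TY1, EGFP and 3xFLAG tags on the clone P000012_B04, together with unc-119(+) in an unc-119(tm4063) background. They were whole L4 larvae of 48 hours, synchronized as L1 larvae that were starved after bleaching, so the lists pool the chromatin of all tissues. The immunoprecipitation used an antibody to GFP per the sample description, while the antibody field names F44E2.7 itself, chromatin was sonicated (size range 200 to 800 as labelled), and no sample without the transgene was analysed here. The files hold peaks and no read counts, so the depth is unknown. Each peak has a signal, which is the authors' value on a scale that is not stated and which ranks peaks only within its own list. The ranked lists also give an irreproducible discovery rate (IDR), an estimate of how often peaks as strong fail to repeat between the lists compared. Every peak of the thresholded list of both replicates had an IDR of 0.01 or lower in the ranked list. That thresholded list held 896 peaks and the ranked list 108809, while the lists of replicates 1 and 2 alone held 178 and 319 thresholded peaks and 65299 and 71635 ranked peaks.

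MicroRNAs are short RNAs that guide Argonaute proteins to messenger RNAs, mostly through the seed, bases 2 to 8 of the mature strand, and so lower the output of those messages. Most are cut from longer primary transcripts of RNA polymerase II, first by Drosha with its partner Pasha and then by Dicer. In C. elegans lin-4 and let-7 were the founding members and time the larval stages, and miRNAs with the same seed form families that can act on shared targets.

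Some of the 8 miRNA genes with a summit in the thresholded list have the same seed, and the mature strands are shown for that reason. The sequences are RefSeq's for WBcel235, 5′ to 3′, with the seed in capitals.
let-7: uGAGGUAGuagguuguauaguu
mir-51: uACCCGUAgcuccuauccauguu
mir-54: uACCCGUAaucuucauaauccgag
mir-55: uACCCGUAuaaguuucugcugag
mir-56: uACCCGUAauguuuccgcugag
mir-80: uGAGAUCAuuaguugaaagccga
mir-58.1: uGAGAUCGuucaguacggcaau
mir-4936: uGCUUUGUggcuuugcuggua
The 4 miRNAs mir-51, mir-54, mir-55 and mir-56 share 1 seed, and the genes mir-54, mir-55 and mir-56 also share 1 peak. The strands of mir-58.1 and mir-80 share their first 7 bases but differ in the last base of the seed. The strands of let-7 and mir-4936 share bases 2 to 7 with no other strand shown.

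These 8 genes had 6 distinct summits. The bases of WBcel235 within 50 bp on either side of 4 of these summits are shown on the strand of the miRNA gene, to set the site with the highest signal beside 3 that hold GAGAG. Capitals mark the tRNA B box pattern GTTCGANNC or the pattern GAGAG, which reads CTCTC where it lies on the other strand.
mir-4936, chrIII:3249208-3249308, plus strand: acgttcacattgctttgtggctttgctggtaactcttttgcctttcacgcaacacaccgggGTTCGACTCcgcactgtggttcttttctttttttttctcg
mir-54, mir-55 and mir-56, chrX:13145232-13145332, minus strand: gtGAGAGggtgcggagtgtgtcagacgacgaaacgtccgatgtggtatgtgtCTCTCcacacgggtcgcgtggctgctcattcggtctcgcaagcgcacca
mir-80, chrIII:8865594-8865694, minus strand: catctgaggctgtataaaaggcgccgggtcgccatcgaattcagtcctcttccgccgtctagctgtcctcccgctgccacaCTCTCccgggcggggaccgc
mir-58.1, chrIV:3232778-3232878, plus strand: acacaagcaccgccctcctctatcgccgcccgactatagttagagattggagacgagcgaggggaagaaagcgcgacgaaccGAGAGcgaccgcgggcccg

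The 8 miRNA genes with a thresholded summit were mir-4936, let-7, mir-80, mir-51, mir-54, mir-55, mir-56 and mir-58.1. They made up 3.07% of the 261 genes (95% exact Clopper-Pearson interval 1.33 to 5.95%, which covers counting error over genes only), and 3.18% of all nuclear genes had such a summit by the same window. Without the piRNA genes, most of which had no summit, the share of all other nuclear genes was 4.62%, which also lay inside the miRNA interval. In the conservative list of the authors, which held 864 peaks, 8 miRNA genes again had a summit, 3.07% against 3.06% of all genes. That share of all genes was not computed without piRNA genes. The conservative list lacked mir-80 and held mir-257 in its place. The same exchange was seen between the authors' ranked lists of both replicates, of which there were 2: the IDR of a peak differs between them, and IDR values given here are from the first unless the other list is named. For 199 miRNA genes the best summit and its signal were the same in each. At an IDR of 0.01 or lower the other ranked list also gave 8 miRNA genes, with mir-257 and without mir-80. In the thresholded list of replicate 1 alone, 1 miRNA gene (0.383%) had a summit against 0.734% of all genes, and in that of replicate 2 alone 1 gene (0.383%) did against 1.33%. Without piRNA genes the shares of all other genes were 1.08% in replicate 1 and 1.95% in replicate 2. The miRNA gene was mir-4936 in each replicate.

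Other short RNA classes differed widely in the same count. The tRNA genes had a thresholded summit at 44.4% (interval 40.5 to 48.5%), the snoRNA genes at 17.3% (13.5 to 21.8%) and the snRNA genes at 10.9% (6.06 to 17.5%). The interval of the miRNA genes lay below all of these, though its upper end of 5.95% was close to the lower end for snRNA genes. The intervals treat genes as separate, while mir-54, mir-55 and mir-56 share 1 summit. The piRNA genes, most of which lie in dense clusters, had one at 0.215% (0.148 to 0.302%), below the miRNA interval. The shares of lincRNA genes (2.58%), ncRNA genes (3.92%) and protein-coding genes (3.73%) fell inside it. Since the window grows with the gene, the classes are not covered alike: the median length was 95 bp for miRNA genes, 72 bp for tRNA genes, 130 bp for snoRNA genes and 2027 bp for protein-coding genes.

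**Figure D1:**
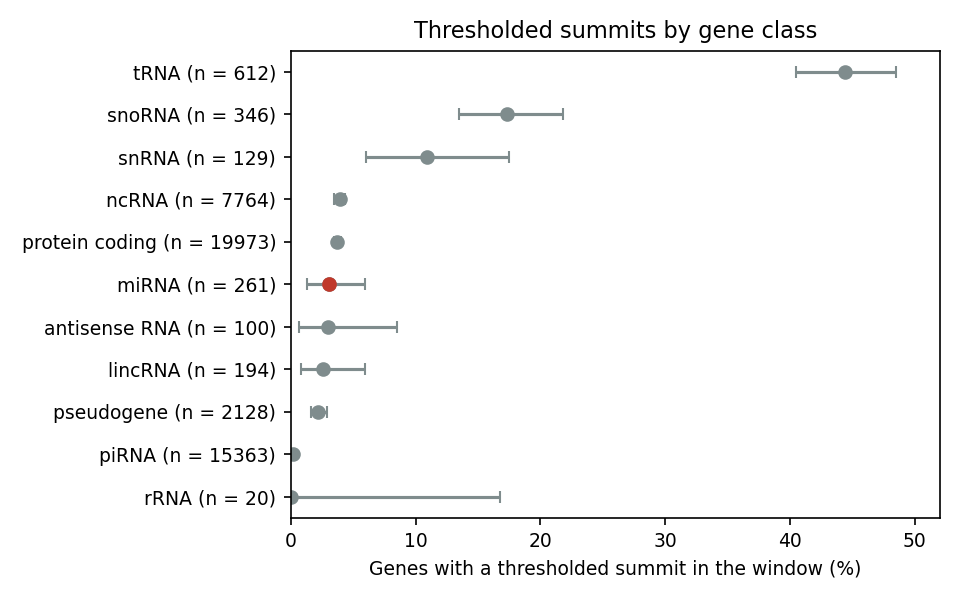
Share of the genes of each class (vertical axis, with the number of genes) that had a summit of the thresholded list in the window from 1000 bp upstream to 200 bp past the gene (horizontal axis, %); points are shares and bars are 95% exact Clopper-Pearson intervals. The miRNA genes (red) lie at 3.07%, far below the tRNA genes at 44.4%.

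In the ranked list, which holds every peak down to weak signal, 208 miRNA genes (79.7%, interval 74.3 to 84.4%) had at least 1 summit, against 62.6% of all nuclear genes. The direction of this difference rests on the piRNA genes, which stood at 17.3%: without them the share of the other 31527 nuclear genes was 84.7%, above that of the miRNA genes. Protein-coding genes, whose windows are longer, stood at 86.2%, ncRNA genes at 81.8% and lincRNA genes at 77.8%. In replicate 1 alone 186 miRNA genes (71.3%) had a ranked summit against 58.5% of all genes, and in replicate 2 alone 183 (70.1%) did against 58.7%. Without piRNA genes the shares of all other genes were 78.3% in replicate 1 and 79.7% in replicate 2, again above those of the miRNA genes. No ranked summit was found for 53 genes in the list of both replicates, and 31 of these also had none in either replicate's own list.

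The best ranked signal of the miRNA genes ran from 8.92 to 134, with a median of 36.8 and quartiles of 26.3 and 45.6. Over all ranked peaks the median signal was 24 and the quartiles were 15 and 34.2, but the members' values are each the highest of a window. As a rank within the list, where a low percentage is near the top, the median miRNA gene lay at 20.2% (quartiles 9.26 and 43.6%). On the same scale the median lay at 0.869% for tRNA genes, 12.2% for snoRNA genes, 21.5% for lincRNA genes and 24.5% for ncRNA genes. Pseudogenes lay at 22.4%, antisense RNA genes at 24.1%, snRNA genes at 14.9%, rRNA genes at 2.76% and piRNA genes at 40.4%. Thus miRNA genes were near several classes in this measure, pseudogenes among them, and far from the tRNA genes. The windows differ in length, with a median gene of 761 bp for lincRNA and 95 bp for miRNA. In the top 1% of the list lay 9 miRNA genes, among them mir-54, mir-55 and mir-56 with 1 shared peak, and in the top 5% lay 32. The share of all genes in these bands was not computed. Since each value is the highest of a window, more than 1% or 5% of genes can lie there in any class.

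**Figure D2:**
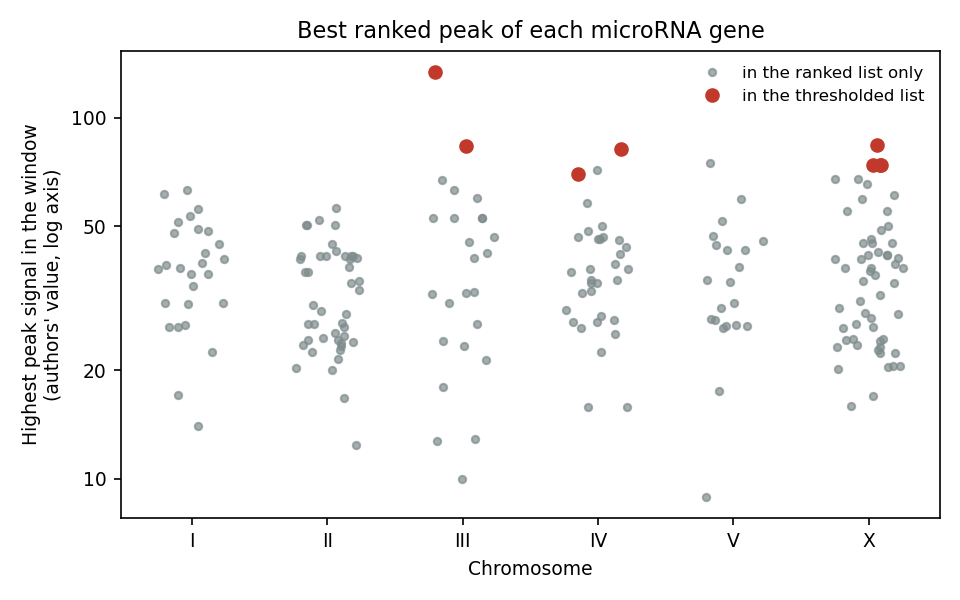
Signal of the best ranked peak (vertical axis, the authors' value on a log axis) of each of the 208 miRNA genes that had one, by chromosome (horizontal axis, points spread sideways at random). Red points are the 8 genes in the thresholded list, which lie on chromosomes III, IV and X.

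The gene with the highest signal was mir-4936 (WBGene00219264, chrIII:3249151-3249260, plus strand). Its peak, chrIII:3249123-3249392, had a signal of 134, rank 143 of the ranked list and an IDR of 0.000358. At the same site replicate 1 gave a signal of 52.2 and replicate 2 a signal of 87.1, ranks of 0.369% and 0.156% from the top of their lists. A replicate peak was taken as the same site where its summit lay within 135 bp, a limit chosen after the data were seen. Thus mir-4936 was near the top in each list. Its summit lay inside the annotated gene, 107 bp from the 5′ end and 20 bp from the mature strand. It was outside protein-coding genes, 683 bp upstream of the start of nduf-9, named for a subunit of mitochondrial complex I.

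The mir-4936 window printed above holds the B box pattern on the gene's strand. The B box is the inner promoter element of tRNA genes that the RNA polymerase III factor TFIIIC binds. The pattern starts 11 bp past the summit and 9 bp past the gene's annotated end, and a run of 9 T, the kind of run at which RNA polymerase III stops, starts 27 bp after the start of the pattern. The nearest gene annotated as a structural RNA, a tRNA gene, was 53738 bp away. Of all 896 thresholded windows of this length, 23.1% held GTTCGANNC or GTTCAANNC on either strand, and 6 windows (0.67%) held such a pattern with a run of 9 or more T. The search for T runs was added after the window had been seen. Its limit of 9 equals the length of this window's own run, so the 0.67% does not measure how unusual the window is. A match of letters is a description of the window.

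The let-7 gene (annotated there as a primary transcript, chrX:14743590-14745321, minus strand) came next. Its miRNA shuts off lin-41 and other early genes at the passage from larva to adult. The peak, chrX:14744506-14744775, had a signal of 84.0, rank 568 and an IDR of 0.00241. At the site replicate 1 gave 34.3 (2.32% from the top) and replicate 2 gave 56.3 (0.542%). The IDR was 0.24 in replicate 1 alone and 0.0134 in replicate 2 alone, so the peak was in neither single-replicate thresholded list. The summit lay inside the transcript, 680 bp from its 5′ end and 386 bp from the nearest mature strand, and also inside the ncRNA gene C05G5.8. With 1732 bp let-7 is the longest annotated miRNA gene, and the next longest has 778 bp, so its window covered more sequence than that of any other.

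The mir-51 family, whose members act redundantly and are required for embryonic development, had thresholded summits at 4 of its 6 genes. The peak at mir-51 (WBcel235 chrIV:11026013-11026112, minus strand) had a signal of 82.0, rank 607 and an IDR of 0.00361. At the site replicate 1 gave 34.9 (2.09% from the top) and replicate 2 gave 55.9 (0.564%). Its summit lay 119 bp upstream of the gene and 12 bp from the ncRNA gene F36H1.17.

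The genes mir-54, mir-55 and mir-56 lie in a row on the minus strand of chromosome X (13144691 to 13145094) and shared 1 peak, chrX:13145147-13145416. It had a signal of 74.2, rank 893 and an IDR of 0.00558, with 44.6 in replicate 1 (0.649%) and 41.4 in replicate 2 (1.9%). The summit was 188 bp upstream of mir-54, the first of the cluster in the direction of transcription, 358 bp from the 5′ end of mir-55 and 495 bp from that of mir-56. It fell in an intron of F09A5.3 on the opposite strand and 11 bp from the ncRNA gene F09A5.11. These 3 genes therefore add 1 site to the count.

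The other members of the family were mir-52 and mir-53. At mir-52 the best ranked signal was 71.6, with an IDR of 0.0108, just past the limit of 0.01, and a summit 234 bp from the 5′ end, past the gene. Replicate 2 gave 40.4 at that site and replicate 1 had no peak there. At mir-53 the ranked list had no summit, while replicate 1 alone had 1 with a signal of 27.4. The 5 ranked genes of the family had signals of 71.6 to 82 at 3 distinct summits and a median rank of 0.821%, beside 20.2% over all miRNA genes with a ranked summit.

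The mir-58 family, abundant miRNAs related by their seed to bantam of Drosophila, had thresholded summits at mir-58.1 and mir-80, 2 of the 8 genes of its list that were found. The peak at mir-80 (chrIII:8865270-8865367, minus strand) had a signal of 83.7, rank 575 and an IDR of 0.00938, just inside the limit, while the other ranked list gave the same peak an IDR of 0.0316, outside it. At the site replicate 1 gave 22.2 (19.5% from the top) and replicate 2 gave 56.2 (0.547%). It was the thresholded miRNA site at which the replicates' ranks lay farthest apart, and it was absent from the conservative list. Its summit was 277 bp upstream of the gene and 17172 bp past the end of F44E2.7 itself (chrIII:8845855-8848472), the gene on the transgene clone. Within 20 kb of F44E2.7 the ranked list had 47 summits with a median rank of 32.6%, 4 of them in the top 1%, while the rest of chromosome III had 16405 summits with a median rank of 49%, 173 of them in the top 1%. How far the clone reaches is not given in the labels, and whether copies of this sequence on it added to the mir-80 peak was not tested. The other miRNA gene within 20 kb, mir-238, had a signal of 60.1 and an IDR of 0.0374, or 0.0561 in the other ranked list. Without these genes 7 miRNA genes at 5 summits remained in the thresholded list.

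At mir-58.1 (chrIV:3233254-3233350, plus strand) the peak, chrIV:3232693-3232962, had a signal of 69.7, rank 1170 and an IDR of 0.00739. At the site replicate 1 gave 31.9 (3.49%) and replicate 2 gave 39.3 (2.48%). This was the lowest signal among the 8, and its summit lay 426 bp upstream, in an intron of Y67D8A.2 on the same strand. Of the other genes of the family mir-81 had a signal of 46.3 and mir-82 one of 40.6, both inside gid-2. The genes mir-2209.1 and mir-2209.3 shared a summit of 35.6 (22.3%), mir-2209.2 had 27.2 (41.1%), and mir-58.2 had no ranked summit in any list. The gene Y73B6A.17, which Ensembl names cel-mir-58c, was not in the family list and had no ranked summit in any list. Over the 7 ranked genes of the family list the median rank was 14.6%.

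**Figure D3:**
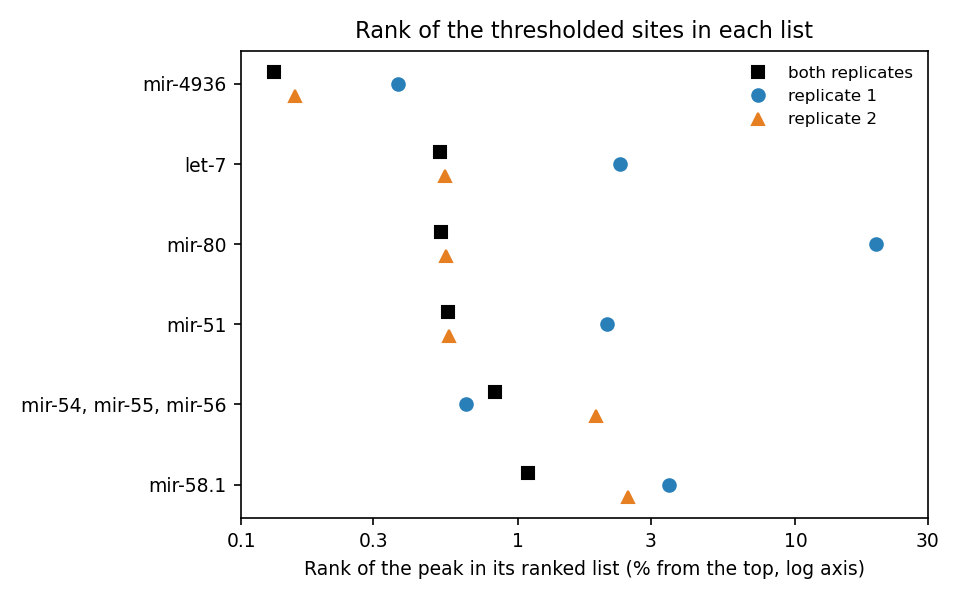
Rank of the peak at each of the 6 thresholded miRNA sites (vertical axis) as a percentage from the top of its ranked list (horizontal axis, log scale), for the list of both replicates and for each replicate alone. The mir-4936 site lies under 1% in each list, and the mir-80 site lies at 19.5% in replicate 1 and 0.547% in replicate 2.

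All 6 thresholded miRNA sites had a ranked peak in each replicate. Over all 896 thresholded summits 95.4% did. Over the 184 distinct best ranked summits of miRNA genes 46.2% did, beside 27.2% of all ranked summits. Each of the 184 was the highest of a window, while all ranked summits include the weakest peaks. The shares of 46.2% and 27.2% therefore do not compare like with like. At 5 of the 6 sites the rank was nearer the top in replicate 2. The exception was the mir-54 site. Over the 855 thresholded summits found in each replicate, 57.9% were nearer the top in replicate 2, and the lists differ in length. Across the 77 miRNA genes whose best ranked peaks lay at the same site in each replicate, Spearman's rho of the rank percentages was 0.465, a description over genes that share their libraries and in part their summits.

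None of the 8 genes had its summit within 200 bp of an annotated structural RNA gene (tRNA, tRNA pseudogene, snoRNA, snRNA, rRNA, spliced leader and the RNase P, RNase MRP and signal recognition particle RNAs). The nearest such gene to a thresholded miRNA site was 23951 bp away, at the mir-54 site, and the farthest was 268819 bp away, at mir-58.1. Of all 896 thresholded summits, 34.2% lay within 200 bp of such a gene. At the looser IDR of 0.05, 21 miRNA genes (8.05%) had a summit against 8.11% of all genes, and in the other ranked list 18 did. The share of all genes at this limit includes the piRNA genes and was not computed without them. Of the 17 distinct summits of the 21 miRNA genes 2 lay within 200 bp of a structural RNA gene. These were the summit shared by mir-239.1 and mir-239.2, inside the snoRNA gene C34E11.20 (signal 67.5, IDR 0.0402), and that of mir-1829.3, 13 bp from a tRNA gene (signal 65.5, IDR 0.0119).

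The windows at the 6 thresholded miRNA sites were rich in G and C. The mean was 59.1% ± 6.62 (SD over 6 windows), beside 49.7% ± 8.61 over all 896. At mir-4936 it was 46.5%, and at the other 5 sites it was 57.4 to 64.4%. A content as high as that of mir-80 was found in 3.57% of all thresholded windows, and one as high as that of mir-51 in 18.3%. Over the 184 best ranked summits of miRNA genes the mean was 42.5%, beside 40.2% over all ranked summits, so the wider set lay near its list.

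GAGAG, the core of the GAGA element, was found on either strand in 3 of the 6 windows and in 26% of all thresholded windows. The B box patterns were found in 1 of the 6 and in 2.72% of the 184 best ranked windows, beside 2.64% of all ranked windows. These 184 windows held GAGAG at 19%, beside 15.4%. The pattern TGATAA, which GATA factors bind, was in 0 of the 6 windows and in 5.47% of all thresholded windows. The pattern CTCCGCCC was in 0 of the 6 and in 1.56%. Beside mir-4936 the B box patterns were found at the best ranked summits of mir-1829.3, mir-4937, mir-8191 and mir-228. Except at mir-1829.3, the nearest structural RNA gene to these was at least 3847 bp away.

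The best ranked summit lay upstream of the gene for 154 of the 208 genes (74%), inside it for 14 and past its end for 40. Upstream bases made up 77.1% of all windows, so the upstream share was near that of the bases searched. The median position was 198 bp upstream of the 5′ end, with quartiles from 511 bp upstream to 7.75 bp past it. Of the 8 thresholded genes 6 had the summit upstream, between 119 and 495 bp from the 5′ end. The let-7 summit counts as inside an annotated primary transcript, but lay 386 bp upstream of the nearest mature strand.

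**Figure D4:**
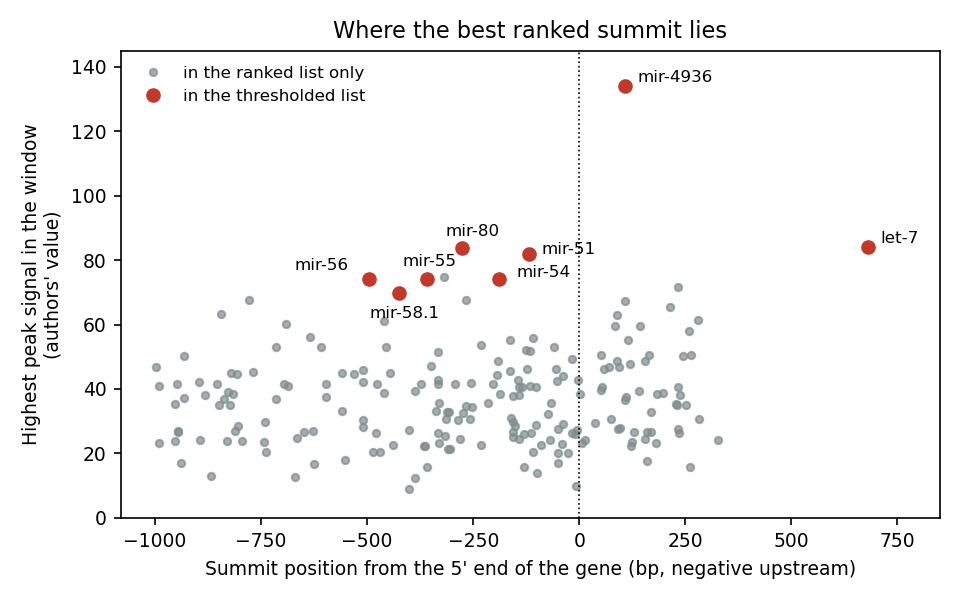
Position of the best ranked summit from the 5′ end of the miRNA gene (horizontal axis, bp, negative upstream, dotted line at the 5′ end) and its signal (vertical axis, the authors' value) for 208 miRNA genes. The 8 genes of the thresholded list are red and named, and mir-54, mir-55 and mir-56 are 1 summit drawn at 3 positions.

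MicroRNA genes inside protein-coding genes can be made from the host's transcript where both lie on the same strand. Of the 106 miRNA genes inside a protein-coding gene on either strand, 4 (3.77%, interval 1.04 to 9.38%) had a thresholded summit, and of the 155 outside, 4 (2.58%, interval 0.708 to 6.48%) did. The intervals overlapped. On the host's strand lay 74 genes with 1 thresholded summit, mir-58.1, and on the opposite strand alone lay 32, with mir-54, mir-55 and mir-56. In the ranked list 91.5% of the genes inside and 71.6% of those outside had a summit, at median ranks of 14.8% and 26.8%. The same shares were not computed for other classes of genes, and the place of the gene was not separated from its chromosome.

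By chromosome the thresholded genes were 2 of 27 on III, 2 of 50 on IV and 4 of 74 on X, and there were none among 33 on I, 49 on II and 28 on V. A ranked summit was found for 92.6% of the miRNA genes on III and for 66% of those on IV. Over all genes the shares were 89.6% on III and 30.4% on IV, where most piRNA genes lie, and without piRNA genes they were 89.8% and 76%. On I, II, V and X ranked summits were found for 81.8%, 91.8%, 75% and 77% of the miRNA genes, beside 89.2%, 90.5%, 81.3% and 85.3% of all genes other than piRNA genes. The share of all genes with a thresholded summit was 5.38% on I, 3.75% on II, 6.69% on III, 1.16% on IV, 3.32% on V and 5.35% on X. The thresholded share on IV includes the piRNA genes, of which 0.215% had such a summit over all chromosomes. It was not computed without them.

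Clustered genes shared summits in the wider list. The 208 genes had 184 distinct best summits, and 39 genes shared 15 of them. The 4 genes of the mir-64 list, mir-64, mir-65, mir-66 and mir-229, lie together in gcn-1 and had the same summit (signal 52.9, 4.61% from the top, IDR 0.0875). It lay 60 bp upstream of mir-229 and gave 31.1 in replicate 1 and 23.6 in replicate 2. In the mir-35 list, whose miRNAs are made in oocytes and embryos, mir-35 to mir-40 shared a summit of signal 41.5 (13.5%), 372 bp upstream of mir-35. It gave 23.8 in replicate 1 and 30.6 in replicate 2. In the same list mir-41 had 23.5 (51.4%), and mir-42 shared a summit of 50.6 (5.77%) with mir-43 and mir-44.

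In the let-7 list the gene nearest to let-7 itself was mir-48, with a signal of 47.2 (7.99%). Replicate 1 gave 22.5 in its window and replicate 2 gave 19.2. It acts with mir-84 and mir-241, which had signals of 42.6 and 45.5, on hbl-1 in earlier larvae. The remaining genes were mir-794 at 38, mir-795 at 26.4 and mir-793, which had no summit in that list but 1 of 17.9 in replicate 2 alone (50.6%) and 1 of 21.5 in the other ranked list of both replicates (IDR 0.718). Thus let-7 alone of the 7 had an IDR under 0.01, and the next lowest in the list was 0.113 at mir-48. The lin-4 list, lin-4 and mir-237, had no ranked summit in the list of both replicates, and replicate 2 alone had weak ones, of 17 at lin-4 and 6.86 at mir-237.

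The lists without a thresholded summit had median ranks near or above that of all miRNA genes, except those of mir-64 (4.61%), mir-2 (8.83%) and mir-35 (13.5%), and the lin-4 list had none. In the mir-2 list, mir-2, whose Drosophila relatives target death genes, had a signal of 63.3 (1.77%, IDR 0.0686) 844 bp upstream, and mir-43 had 50.6. In the mir-44 list mir-44 had 50.6 and mir-61 had 42.9 (11.9%). Of the genes known for 1 tissue or process, mir-71, which extends lifespan, had 55.9 (3.46%, IDR 0.366, or 0.0292 in the other ranked list), with 23.5 in replicate 1 and 43.9 in replicate 2. The neuronal mir-124 had 42 (12.9%), and mir-1 of muscle had 36.9 (19.9%). The lowest of that list was mir-235, which holds blast cells quiescent in starved larvae, at 26.3 (43.6%). The hairpins of mirtrons are cut out by the spliceosome in place of Drosha. In the mirtron list of 3 genes, mir-62 had 48.8 (6.82%) and mir-1020 had 12.9 (80.4%). The last, mir-1018, lies in no annotated protein-coding gene and had no ranked summit.

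**Figure D5:**
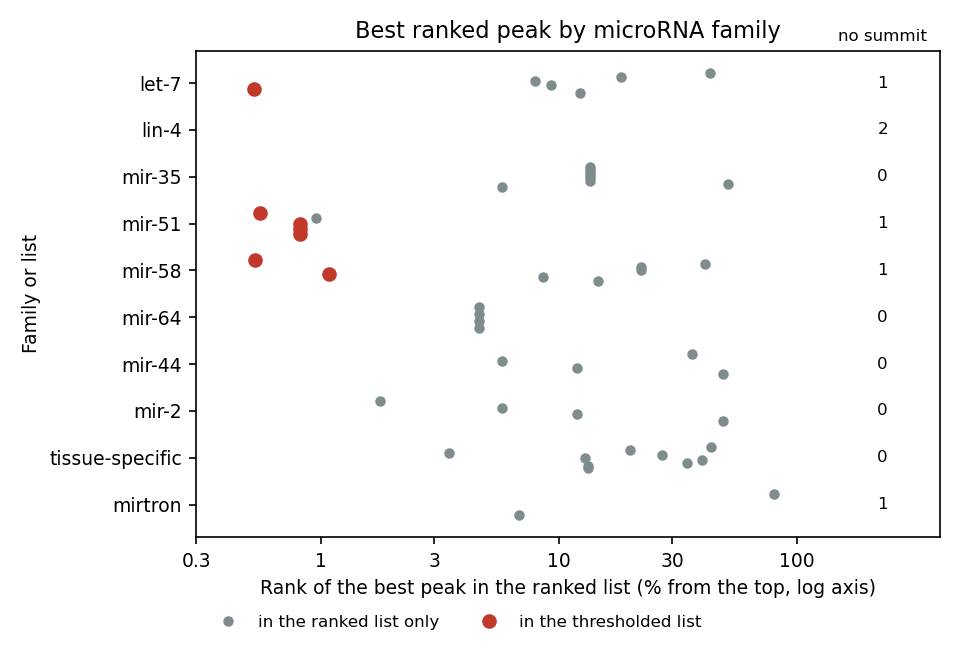
Rank of the best peak of each miRNA gene as a percentage from the top of the ranked list (horizontal axis, log scale) by family or list (vertical axis), with the number of genes without a summit on the right. Red points are genes in the thresholded list, and the 5 ranked genes of the mir-51 list all lie between 0.558 and 0.951%.

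The miRNA genes of highest signal outside the thresholded list were mir-257, mir-52, mir-239.1, mir-239.2, mir-4927, mir-1829.3, mir-2, mir-272, mir-50, F09A5.15 and mir-238. The highest was mir-257 on chromosome V, which was in the conservative list alone, with a signal of 74.8, rank 864 and an IDR of 0.0396 in the ranked list. In the other ranked list the same peak had an IDR of 0.00766, inside the limit, so the choice of list decides whether mir-257 is counted. Replicate 1 gave 34.7 there (2.17%) and replicate 2 gave 37.5 (3.14%), 318 bp upstream of the gene and 8243 bp from the spliced leader gene sls-1.1. Its signal was above that of mir-54 and mir-58.1, which were inside the list, so signal and IDR did not order these genes alike. The signals of the others ran from 60.1 to 71.6. Among them mir-4927 had 67.2 (IDR 0.0159, or 0.0605 in the other list), mir-50 had 61.4 (IDR 0.04) and mir-272 had 63.1 (IDR 0.0603). At the mir-272 site replicate 2 gave 52.1. Replicate 1 had no summit within 135 bp, but a peak of 16.8 lay just outside that limit. F09A5.15, on the strand opposite to mir-55, had 61.1 (IDR 0.0295). Some genes of lower signal had an IDR nearer the limit than that of mir-272. They were mir-1830 (IDR 0.0336), mir-8200 (0.0471), and mir-73 and mir-74 (0.0487), all above 0.05 in the other ranked list.

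The proteins that make, use or answer to miRNAs were read from a list of 22 genes, of which 21 were found by symbol, with a promoter window from 1000 bp upstream to 200 bp inside the gene. Of these, 1 had a thresholded summit, and 1.51% of all 19973 protein-coding genes did. It was nhl-2, a TRIM-NHL cofactor of the miRNA-induced silencing complex. Its signal was 120 (0.177%, IDR 0.00063), with 49.5 in replicate 1 and 78.1 in replicate 2, 837 bp upstream of the gene and 109954 bp from the nearest structural RNA gene. Its signal was below that of mir-4936 and above that of let-7.

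Among the processing and effector genes, the Argonaute gene alg-1 had 64.9 (1.56%, IDR 0.011) and xrn-2, an exonuclease that degrades released miRNAs, had 65.6 (1.48%, IDR 0.0143). The other Argonaute gene, alg-2, had 37.2, Dicer's dcr-1 had 36.2 and Drosha's drsh-1 had 32.1. Of the targets and timing genes, lin-14, the target of lin-4, had 55.5 (3.57%), hbl-1 had 37.5 and lin-41 had 18.3. No ranked summit was found for pash-1, lin-28 or let-60, so 18 of the 21 had one, beside 74.3% of all protein-coding genes. Over these 18 the median rank was 22.6%, beside 33.9% over all protein-coding genes with one.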

How the data were processed

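Both samples and 8 peak lists on ce11 were used. Per the labels and the accompanying file notes, the authors aligned reads and made IDR-ranked and IDR-thresholded peaks for each replicate and for both together; the aligner, the peak caller and the use of the possible control are not named in the sources used here. The deposited signal (column 7) is the authors' value of a peak on a scale not stated, and the deposited −log10 IDR (column 12) was turned into an IDR. Almost all peaks of the ranked list (99.97%) are 270 bp wide, so the summit is the midpoint. In all, 8 further signal columns, 2 in each ranked list, were not used.

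Genes came from the Ensembl annotation of WBcel235, and mature strands and genome sequence from RefSeq, which matched 260 of the 261 miRNA genes. Ranks were computed within each list. With 1 group and no counts there was no test: shares have 95% exact Clopper-Pearson intervals, and neither the precision of a signal nor a limit from depth can be given. Nothing says how separate the replicate cultures were beyond their labels as biological replicates.

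Named genes were those in any thresholded list, the 10 further genes of highest ranked signal and up to 2 per family list; others were named after their values were seen. The members and lists were chosen with earlier results of these data known. The window search was tested on simulated summits. Alternatives were other windows, other IDR limits, other lists, each replicate alone, RefSeq genes and, chosen after seeing the data, leaving out genes within 20 kb of F44E2.7 and the IDR of the other ranked list. Tables were handled with pandas 2.3.3 and numpy 2.4.6 under Python 3.11.15, intervals came from scipy 1.17.1, and plots from matplotlib 3.10.9.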

Additional observations from a re-analysis of the deposited data

How the results depend on the processing

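The count of 8 miRNA genes at 6 thresholded summits depended on the limit and on using both replicates. With the other ranked list at an IDR of 0.01, chosen after seeing the data, there were again 8 genes, with mir-257 in place of mir-80. At an IDR of 0.001 it was 1 gene at 1 summit, and at 0.05 it was 21 genes at 17 summits. The thresholded list of either replicate alone gave 1 gene at 1 summit, so the lowest and highest values without a replicate were 1 and 1. The cause was not tested. Within 200 bp of the gene on either side there were 4 genes (mir-4936, mir-51, mir-54 and let-7). Of these let-7 has its summit inside an annotated primary transcript, 386 bp from the nearest mature strand. The other 7 alternatives for the gene count gave 6 to 9, among them 6 in the mirrored window and 9 with 2000 bp upstream, where mir-235 was added. The mirrored window lost mir-80, mir-58.1, mir-55 and mir-56 and added mir-5549 and F09A5.15, so the set of genes changed more than their count.

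The median best rank of 20.2% became 37.7% within 200 bp, a shorter window, and 30.1 to 32.3% in the lists of a single replicate, which differ in length. The median position moved from -198 bp to -232 bp in the thresholded list and to -560 bp with 2000 bp upstream, a window that reaches farther. Counting hosts on the same strand only gave 1 thresholded gene inside and 7 outside, in place of 4 and 4. With a promoter window of 500 bp upstream and 100 bp inside, 0 of the pathway genes had a thresholded summit, because that of nhl-2 lies farther out. The count of 208 genes with a ranked summit and that of 8 away from structural RNA genes stayed within 1.5 times under each alternative run for them. No paired analysis was possible because there is 1 group. No read depth is known, so a gene without a peak is not shown to be unbound.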
